A study of Arabidopsis thaliana with 12 samples.

Results

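CCL (AT3G26740, CCR-like) was followed in total RNA of Arabidopsis thaliana through the probe of the array that lists this gene and no other. It is 1 of 692 single-gene probes among 3439, and no other probe lists CCL among several genes. The single-gene probes stand for 691 genes, of 2293 listed for any probe. The groups were 6 wild-type samples (WT) and 6 samples of the psak mutant, both in ecotype Columbia 0. In psak plants photosystem I is without PSI-K, a small membrane protein at the side where antenna complexes attach. The labels used here name no allele, organ, age, growth condition or time of harvest, and do not say whether the samples numbered 1 to 6 in a genotype came from separate plants. CCL was selected on its intensities in these 12 samples, which were known to be lower in psak, so its genotype levels are given as a description with no test.

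CCL is an output of the circadian clock, the cell's timer of daily rhythms. Both the amount of its mRNA and the stability of that mRNA change over the day, and the mRNA is a target of the decay pathway linked to the downstream (DST) instability element. The same locus has also been described as LIR1, a light-regulated chloroplast protein that helps to hold leaf-type ferredoxin-NADP reductase at the thylakoid membrane. That reductase passes to NADP the electrons which photosystem I has given to ferredoxin.

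CCL was lower in psak than in WT in every sample. On the authors' scale from 0 to 100, its deposited intensity was 9.93, 11.9, 9.02, 8.63, 8.52 and 9.29 in WT samples 1 to 6. In psak samples 1 to 6 it was 4.41, 4.74, 2.67, 3.04, 3.52 and 3.77. The groups did not overlap, and the lowest WT sample stood 1.80 times above the highest psak sample. The mean fell from 9.54 ± 1.24 (SD, n = 6) to 3.69 ± 0.790 (n = 6), so WT stood 2.59 times above psak. Such a gap, with all psak samples below all WT samples, was found for 9.25% of the 2358 probes above 0 in every sample. In bulk RNA, fewer cells that express the gene and less of its RNA per cell cannot be told apart.

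After log2 and quantile normalization, which gives every sample the same distribution, CCL stood at 3.24 ± 0.14 (SD, n = 6) in WT and 1.93 ± 0.20 (n = 6) in psak. The difference in the linear model of limma over all probes was -1.31 ± 0.13 (SE), with a median of -0.0026 over the 2993 probes tested. The SE takes the 12 samples as independent. With samples 1 and 2, 3 and 4, and 5 and 6 of a genotype as a random block, the SE was 0.17, and with the mean of each of these number pairs as 1 replicate it was 0.23. Over 6 scalings of the samples the difference itself ran from -1.39 with the values as deposited to -1.26 with samples centred on the median of the probes above 0 in all of them.

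**Figure D1:**
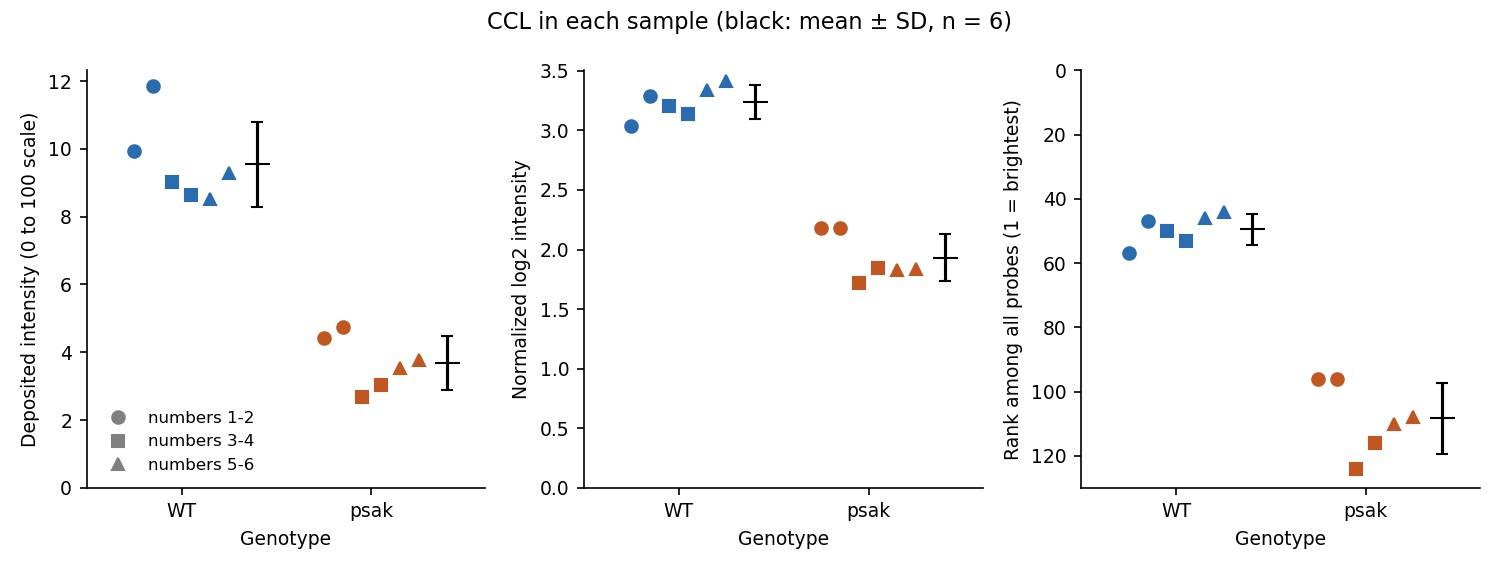
CCL in each of the 12 samples, as deposited intensity, as normalized log2 intensity and as rank among 3439 probes (1 is the brightest, drawn at the top). Marker shapes stand for sample numbers 1-2, 3-4 and 5-6, and black bars show the mean ± SD (n = 6); on each scale all psak samples lie below all WT samples.

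The rank of a probe within its own sample does not change with any scaling of that sample. CCL ranked between 44 and 57 from the brightest of 3439 probes in the WT samples and between 96 and 124 in the psak samples. Its mean rank was 49.5 ± 4.85 (SD, n = 6) in WT and 108.3 ± 11.1 (n = 6) in psak. Among the 692 single-gene probes it ranked 10 to 12 in WT and 20 to 24 in psak. Its share of the summed intensity of a sample fell from 0.298% ± 0.0249 (n = 6) to 0.115% ± 0.0187 (n = 6). These ranks order the brightness of probes, not the abundance of transcripts, because probes differ in how well they bind.

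By the size of its normalized log2 difference CCL came 96th from the lowest of the 2993 tested probes and 12th of the 595 single-gene ones. Of the 95 probes below it, 15 were in the brightest 25% of the array and above 0 in every sample. Among 175 single-gene probes in the brightest 25% that were above 0 in every sample, it came 2nd. The probe below it was AT-HF, at -1.52 ± 0.49 (SE), and the next above it was AT2G46220, at -1.17 ± 0.26. Both are named here after their values were seen. Ordered by limma's unadjusted p, CCL came 3rd of all tested probes, in the contrast it was chosen from. This place is a description and no test of CCL, and the order takes the 12 samples as independent.

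**Figure D2:**
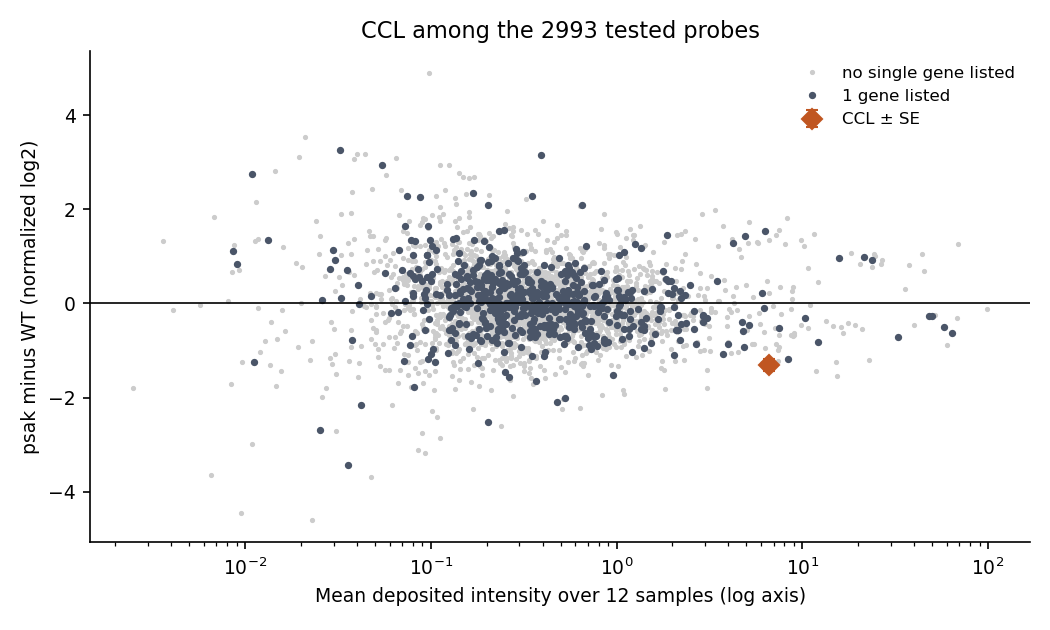
Difference between psak and WT (normalized log2) against the mean deposited intensity over 12 samples (log axis) for the 2993 tested probes. Probes that list 1 gene are dark, other probes are grey, and CCL is the diamond with its SE at -1.31 ± 0.13, at the lower edge of the bright probes.

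After quantile normalization CCL varied less within a genotype than most probes in the brightest 25% of the array. Over 855 probes in the brightest 25% that were above 0 in all samples, the median SD of normalized log2 values was 0.26 in WT and 0.30 in psak, against 0.14 and 0.20 for CCL. In WT 14.9% of these probes had a smaller SD than CCL, and in psak 24.7% had. The set reaches down to probes much dimmer than CCL, such as AT-HF with means of 1.34 in WT and 0.557 in psak. It is thus no comparison at equal brightness, and no other scaling was compared. CCL was also selected on its intensities in these samples, and a clear gap between groups goes with a small SD.

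The spread that CCL did show lay mostly between number pairs in psak, and less so in WT. Sample pairs were only partly alike over the array. The SD of the log2 difference was 0.487 to 0.831 within WT pairs against 0.701 to 0.886 between other WT samples. It was 0.516 to 0.809 within psak pairs against 0.609 to 1.08. The ranges overlapped in both genotypes, so not every pair was closer than samples of different pairs. For CCL, 96.3% of the sum of squares of the normalized values within psak lay between the pairs, and 62.8% of that within WT. A large part of such a sum lies between pairs by chance, and these shares were not compared with other probes. The tests among pairs given below did not pass on this scale in either genotype. The psak samples 1 and 2 were nearly equal at 2.18 and 2.18, samples 3 and 4 stood at 1.72 and 1.84, and samples 5 and 6 at 1.83 and 1.83. CCL was thus highest in psak samples 1 and 2 on the normalized and on the deposited scale, and by rank (96 in both).

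Within number pairs, WT stood 2.38 times above psak in samples 1-2, 3.09 times in 3-4 and 2.44 times in 5-6, from the deposited means. The normalized log2 differences were -0.98, -1.39 and -1.55, each with an SE of 0.12. The difference in pair 3-4 exceeded that in pair 1-2 by -0.41 ± 0.18 (SE) on the log2 scale, and that in pair 5-6 did so by -0.57 ± 0.18. The variation of the genotype difference among the pairs did not pass (limma moderated F, adjusted p = 0.0968, unadjusted p = 0.0322). This test called 23.2% of the 2751 probes with a value in each pair. The pairs come from the sample numbers and were known to be partly alike when this test was chosen. The labels do not say what the numbers stand for.

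Variation among the pairs within a genotype was tested in the same way. In WT, CCL was 0.01 higher in pair 3-4 and 0.22 higher in pair 5-6 than in pair 1-2 on the normalized log2 scale (SE 0.12, limma moderated F, adjusted p = 0.374). These WT values turned negative as deposited (-0.30 and -0.29) and with samples centred on their log2 medians (-0.37 and -0.65). In psak, the values of pairs 3-4 and 5-6 against pair 1-2 were -0.40 and -0.35 (SE 0.12, limma moderated F, adjusted p = 0.0696). The same tests called 16.1% of the probes in WT and 33.0% in psak. With the values as deposited the psak values were -0.68 and -0.33 (limma moderated F, adjusted p = 0.0118), and with median centring that of pair 5-6 turned to 0.57. The tests among pairs set the pairs against the gap between the 2 samples of a pair, which may be technical only, so they do not show a difference between plants.

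Over the 6 scalings the value of pair 5-6 moved more than that of the other pairs. It was -1.55 after quantile normalization and -1.29 with the values as deposited, but -0.40 ± 0.14 (SE) with samples centred on their log2 medians. With that centring the difference varied among the pairs (limma moderated F, adjusted p = 0.00171). The psak samples 5 and 6 had log2 medians of -2.15 and -2.20, against -1.39 to -1.25 in the other psak samples, and 18.1% and 19.4% of their probes at 0, against 13.0% to 13.6%. The ranks of CCL, which need no scaling, were 46 and 44 in WT samples 5 and 6 and 110 and 108 in psak samples 5 and 6. The part of the lower medians in the pair value was not tested.

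**Figure D3:**
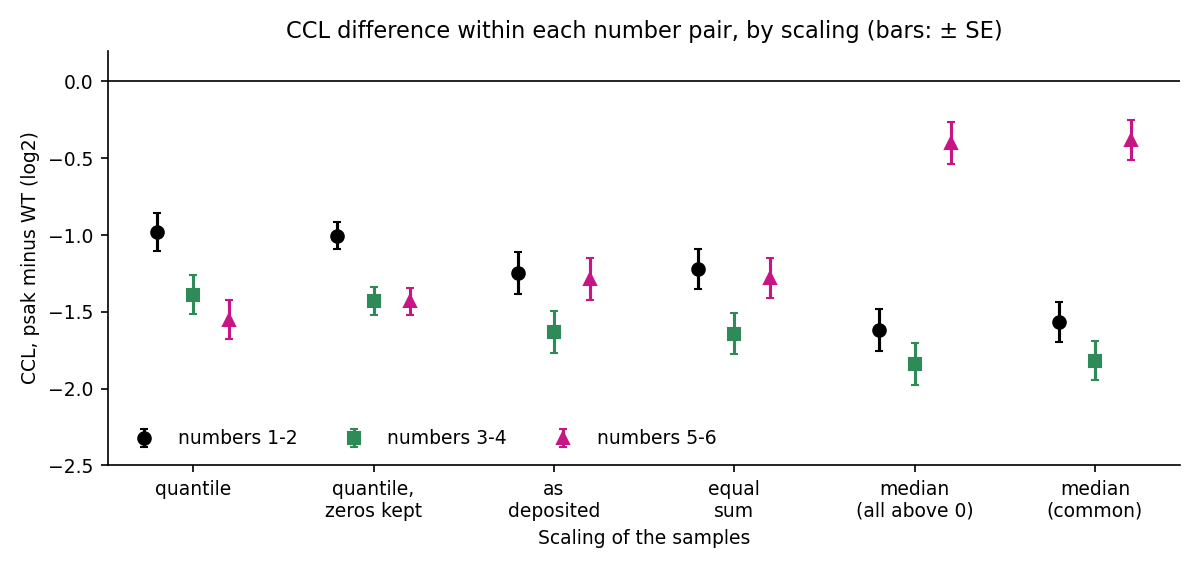
CCL difference between psak and WT (log2) within sample numbers 1-2, 3-4 and 5-6 under 6 ways to scale the samples; bars are ± SE of the 6-cell fit. All values are below 0, and pair 5-6 moves from -1.55 with quantile normalization to -0.40 with centring on the log2 medians.

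The order of the WT samples also changed with the scaling. As deposited, WT 2 was the highest at 11.9 and WT 5 the lowest at 8.52. After normalization WT 6 was the highest at 3.42 and WT 1 the lowest at 3.03. Normalization lowered CCL by 0.28 on the log2 scale in both WT 1 and WT 2 and raised it by 0.25 in WT 5 and 0.20 in WT 6. The summed intensity was 3460 and 3439 in WT 1 and WT 2, against 2967 to 3149 in the other WT samples. In psak the sums were 3359 and 3416 in samples 1 and 2, which also had the highest CCL, against 2968 to 3119 in the others. The part of the sums in the deposited CCL values was not tested.

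The single-gene probes most like CCL were sought among 475 candidates above 0 in all samples, by Pearson r of normalized log2 values over the 6 samples of a genotype. The r values are a description: the 6 samples share 3 number pairs, and the highest of many candidates is picked. Over all candidates the median r was 0.11 in WT and 0.16 in psak, and 30 candidates in WT and 18 in psak had r above 0.8. At the other end, 23 candidates in WT and 20 in psak had r below -0.8.

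In WT the closest probe was AGL26, with r = 0.99 and a Spearman rho of 1. AT4G22650 followed with r = 0.98, then AT3G09490 with 0.95, AT1G50390 with 0.94 and AT3G55070 with 0.93. AGL26 was dim, at 0.289, 0.484, 0.455, 0.361, 0.639 and 0.766 in WT samples 1 to 6. It was lowest in WT 1 and highest in WT 6, as CCL was after normalization but not as deposited. With the values as deposited, all 5 had an r below 0 in WT, from -0.30 to -0.15. The median over all candidates was then -0.28 in WT, so such values were common and not particular to these 5. Their Spearman rho was 0.83 to 1, and r was 0.79 to 0.99 without WT 1 and WT 6, the samples farthest from the CCL median. In psak their r on the normalized scale ran from -0.52 to 0.29.

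In psak the closest probe was AT5G66780, with r = 0.98. AT1G24360, a chloroplast reductase of fatty acid synthesis, followed with r = 0.95, as did AT4G22830 with 0.95. ATSPS4F, a sucrose phosphate synthase, had r = 0.94, and AT2G19280, a pentatricopeptide repeat protein, had 0.92. AT5G66780 stood at 1.95, 2.11, 1.17, 1.30, 1.5 and 1.38 in psak samples 1 to 6. It was thus highest in samples 1 and 2 and lowest in sample 3, as CCL was. These 5 had a Spearman rho of 0.60 to 0.83, and r values of 0.82 to 0.95 with the values as deposited. Without psak 1 and psak 2, the samples farthest from the CCL median, r was 0.77 for AT5G66780, 0.80 for AT2G19280 and 0.60 for ATSPS4F. It was 0.09 for AT1G24360 and 0.06 for AT4G22830, whose likeness to CCL in psak rests on those 2 samples.

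**Figure D4:**
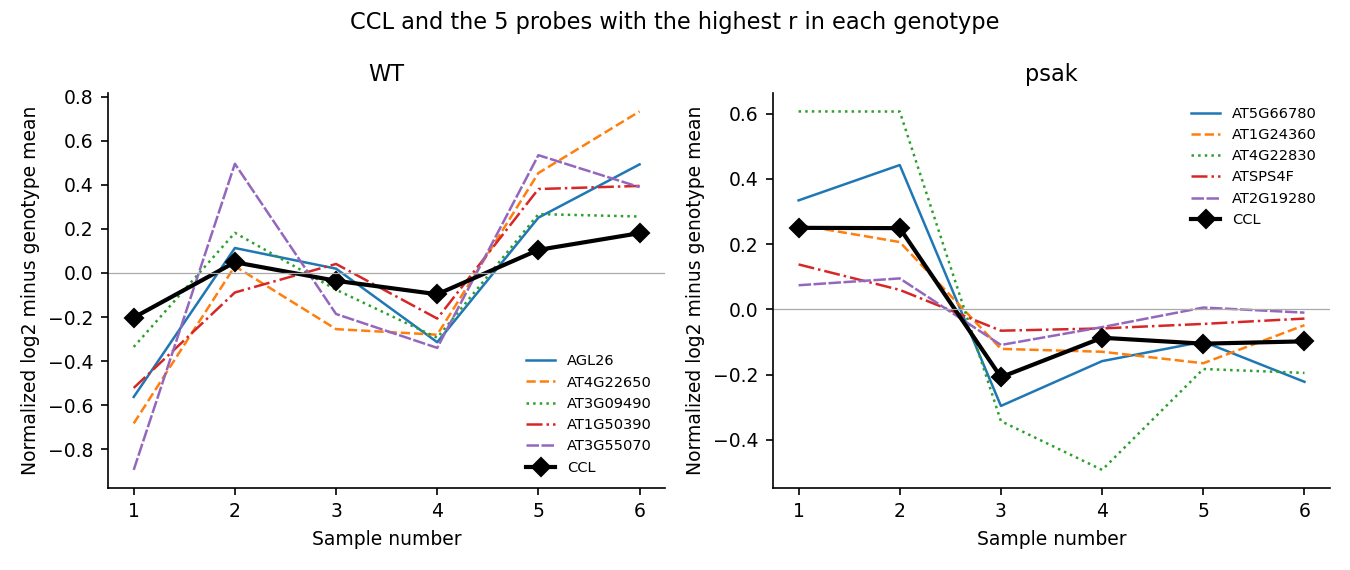
Normalized log2 values minus the genotype mean (vertical axis) by sample number for CCL (black) and the 5 single-gene probes with the highest r in WT (left) and in psak (right). Sample numbers have no order and lines only link the points of a probe; in psak all 6 profiles are high in samples 1 and 2.

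The lists of the 2 genotypes had no probe in common, and on the normalized scale 1 candidate, AT3G13120, had r above 0.8 in both. Lists of 5 from 475 candidates seldom share a probe by chance, and sets of 30 and 18 share few. AT3G13120 is a protein of the plastid ribosome, with r = 0.85 in WT and 0.88 in psak, but -0.51 and 0.32 as deposited. On the deposited scale AT1G24360 was above 0.8 in both genotypes, with r = 0.91 in WT and 0.82 in psak, against 0.07 in WT after normalization. Of the 30 candidates above 0.8 in WT, 11 were below 0 in psak, and of the 18 above 0.8 in psak, 12 were below 0 in WT. The median r over all candidates was only 0.16 in psak and 0.11 in WT, so values below 0 were common among the others too. These counts are not read as a difference between the genotypes. As deposited, 13 candidates in WT and 21 in psak had r above 0.8. No candidate in WT and 8 in psak were above 0.8 on both the normalized and the deposited scale. Sets of 30 and 13 from 475 also share few by chance, so these counts too are not read as a difference between the genotypes. Those 8 were the 5 named above, AT3G06570, AT4G31530 and LHB1B2, an antenna protein of photosystem II, the last 3 named after their values were seen. LHB1B2 had r = 0.90 in psak and -0.77 in WT on the normalized scale, but 0.98 and 0.69 as deposited, so its sign in WT turned.

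**Figure D5:**
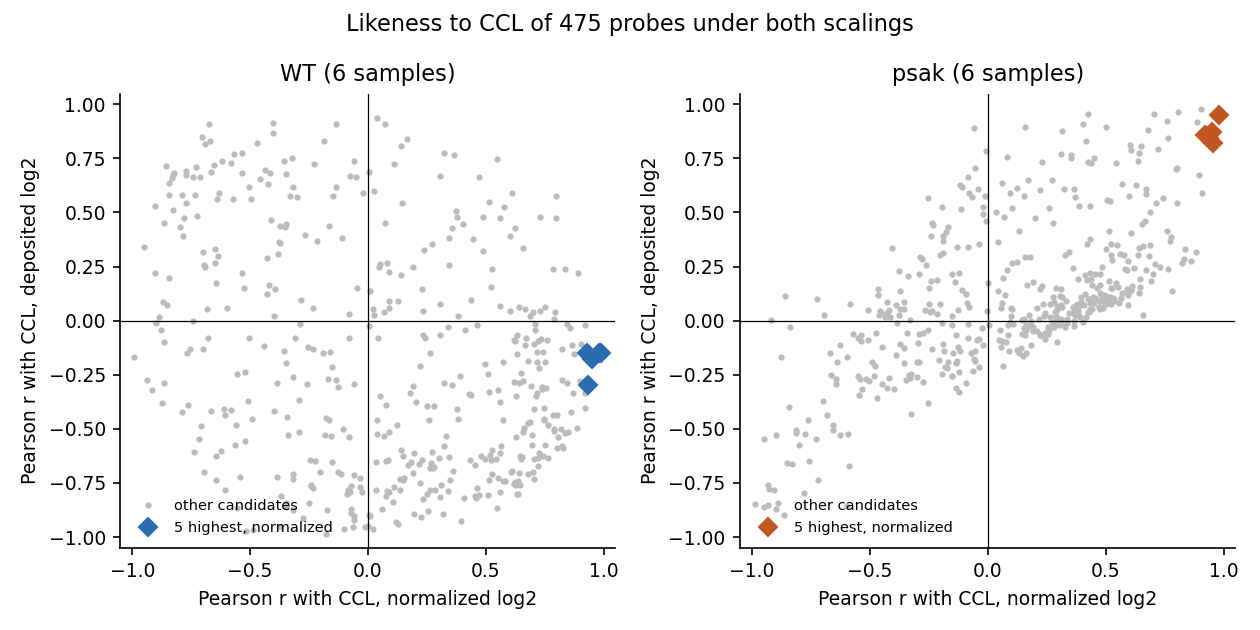
Pearson r with CCL over 6 samples for 475 single-gene probes, with normalized log2 values on the horizontal and deposited log2 values on the vertical axis, in WT (left) and psak (right). Coloured diamonds are the 5 highest on the normalized scale: in WT they have r from -0.30 to -0.15 as deposited, in psak from 0.82 to 0.95. The median r of all candidates as deposited is -0.28 in WT and 0.08 in psak.

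With the genotype means taken off and all 12 samples used, AT4G22830 was closest to CCL (r = 0.87). This is a bright probe, at 54.5 ± 10.7 (SD, n = 6) in WT and 45.9 ± 12.7 (n = 6) in psak, and in psak it was highest in samples 1 and 2 and lowest in samples 3 and 4. It was the only candidate with r above 0.7 on both scales (0.76 as deposited). AT3G13120 followed with r = 0.84. PIFI, a chloroplast protein of the NADH dehydrogenase-like pathway of electron flow, had r = 0.76. AT5G59400 had r = 0.74 and AT5G40070 had 0.71. These last 4 probes had r of 0.02 to 0.18 with the values as deposited. The lowest r values were those of AT4G15840 at -0.85, AT5G66050 at -0.85 and AT2G37580 at -0.85.

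Of the 17 probes of these lists, which include the 3 of lowest r, 2 were higher in psak and 1 was lower (limma adjusted p under 0.05). This is 17.6% against 14.8% of all probes tested, of which 8.12% were higher and 6.72% lower. All 17 were above 0 in every sample. A run on such probes only called 445 of 2358, a larger share than over all probes tested. ATSPS4F rose by 0.53 ± 0.12 (SE, limma adjusted p = 0.0111) and AT5G59400 by 0.82 ± 0.16 (limma adjusted p = 0.00556), while AT2G37580 fell by 0.59 ± 0.17 (limma adjusted p = 0.0388) on the log2 scale. The other 14 did not pass. With number pairs as a random block the call of AT5G59400 held (limma adjusted p = 0.0375), and those of ATSPS4F and AT2G37580 ended (0.0934 and 0.150). With pair means none of the 3 passed (limma adjusted p = 0.298, 0.220 and 0.344 for ATSPS4F, AT5G59400 and AT2G37580). AT4G22830 had a log2 difference of -0.27 ± 0.21 (limma adjusted p = 0.432) and AT5G66780 one of 0.31 ± 0.17 (limma adjusted p = 0.239). The median of the 17 was 0.05.

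Genes tied to CCL by known function could hardly be read on this array. Of 17 genes of the circadian clock, 9 clock-controlled outputs, 2 other targets of DST-linked decay and 12 genes of ferredoxin, its reductase and the reductase's membrane anchors, none has a probe that lists it alone. Of these genes, 1 clock-controlled output and 1 gene of the ferredoxin group are listed on probes shared with other genes. None of them is analysed here. Of 16 genes of photosystem I and its antenna, 1 was tested, which does not describe the group. It was PSAN, the lumenal subunit that takes part in plastocyanin docking. PSAN was called higher in psak (log2 difference 1.43 ± 0.25 SE, limma adjusted p = 0.00366), as were 8.12% of all tested probes. The call held under the random block of number pairs (limma adjusted p = 0.0142) and ended with pair means (0.187). Its r with CCL on the normalized scale was -0.78 over the WT samples and 0.74 over the psak samples. As deposited these values were 0.47 and 0.57, so the sign in WT turned with the scaling, and without psak 1 and psak 2 the normalized value in psak was -0.35. In RefSeq's TAIR10.1 gene order, 1 of the 20 protein-coding genes nearest to CCL had a single-gene probe. This was the adjacent AT3G26730, above 0 in 1 WT and 4 psak samples and so not tested.

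Of all tested probes, limma called 243 as higher in psak and 201 as lower. Without normalization these counts were 146 and 275, with a median log2 difference of -0.11 over all tested probes. No probe lists PSAK alone, and the labels of the genotypes could not be checked through it. The highest value in a sample was 98.8 to 100, against at most 11.9 for CCL.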

How the data were processed

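The authors deposited an intensity for each probe in each sample, with 0 as the lowest and 100 as the highest value of the linear scale. Scanning, background correction and scaling of these intensities are not described in the labels. Names come from GEO's probe table (692 probes with 1 gene, 870 with several, 1877 without an entry), and 690 of the 692 matched RefSeq's gene table of TAIR10.1. The array's genome build is unknown, so positions are left out. With 6 samples per genotype, p-values reflect the spread between samples that may be partly technical repeats.

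Zeros were set to missing and the other values were log2-transformed and quantile normalized. Probes with at least 2 values per genotype entered limma 3.58.1 (R 4.3.3; lmFit, then eBayes; tests two-sided; Benjamini-Hochberg adjustment over all probes tested). A second fit had 6 cells, genotype by number pair, for probes with a value in each cell and at least 8 in all. Both fits were run on simulated data with samples drawn independently, so that run did not cover likeness within number pairs. The gene, its pairs and the gene lists were chosen with earlier results of these data known. Named genes are CCL, the 5 probes of highest r in each genotype, the 5 highest and 3 lowest over samples with genotype means taken off, and the tested members of the lists. Alternatives were other scalings, an offset of 0.05 that keeps zeros, only probes above 0 everywhere, blocks, pair means and samples left out. Plots were made in Python 3.11.15 with matplotlib 3.10.9.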

Additional observations from a re-analysis of the deposited data

Results flagged for a closer look

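One sample was sought that lay far from the other 5 of its genotype, in 40 groups of 6 values from CCL and the named probes. It was found in 1 group, by a gap to the nearest sample divided by the whole range that was above Dixon's critical value. AT1G24360 in WT had a ratio of 0.759, with WT 2 at 1.68 against 1.11 to 1.25 in the other WT samples. Chance flags about 1 in 20 groups of independent, normally distributed values, and these samples are partly alike within number pairs. CCL was not among such groups on either scale.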

How the results depend on the processing

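The CCL difference was negative and within 1 SD of its value of -1.31 under every alternative run, from -1.39 to -1.23, and from -1.35 to -1.26 with each sample left out. WT and psak samples of the same number were partly alike in their deviations from the genotype means. Their correlations were 0.08 to 0.24, not all above the bound of 0.1, and 11 of 12 samples correlated best with their own number. The labels do not say whether equal numbers belong together, and the main fit took the genotypes as unpaired. As a replicate block the sample numbers left the CCL difference at -1.31 ± 0.15 (SE) and the array with 212 probes higher and 220 lower. The count of called probes, 444, was 266 with samples centred on their medians, 283 with the median of probes above 0 in all samples (chosen after seeing the data), 154 with number pairs as a random block, 947 without psak 5 and psak 6, and 327 to 583 with each sample left out. It was 0 in limma with pair means, where 465 of 2965 probes had an unadjusted p under 0.05. The variation of the CCL difference among number pairs passed with both median centrings (limma adjusted p = 0.00171 and 0.00139), and gave 0.0508 to 0.222 with each sample left out. Within WT these centrings gave 0.0300 and 0.0238, with the pair values turned in sign, and samples left out gave 0.194 to 0.746. Within psak, limma adjusted p was 0.0118 as deposited, 0.00115 and 0.00106 with the median centrings, where pair 5-6 turned from below to above pair 1-2 (0.57 and 0.53), 0.0389 with the offset and 0.0340 with equal sums (chosen after seeing the data). It was 0.0432 to 0.183 with each sample left out, passing without WT 1 (0.0432) and without WT 2 (0.0436). Of the 5 probes most like CCL in WT, 3 were among the 5 highest by Spearman rho, 0 as deposited, 1 without the 2 farthest samples and 2 to 4 with each sample left out. In psak these counts were 0, 1, 0 and 2 to 5. Over centred samples they were 0 as deposited, 1 without the 2 farthest samples and 3 to 5 with each sample left out. The cause of these changes was not tested. How far the array's unstated background correction limits dim probes is not known.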
